A study of Mus musculus with 15 samples.

Results

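The genes described here are 41 type I interferon-stimulated genes of the mouse, taken by symbol from a list that covers signal transducers, RNA sensors, antiviral effectors and the ISG15 system. Of these, 40 were found among the 16330 genes of the expression table, and 39 reached the minimum of 10 normalized counts in at least 3 libraries that was set for testing. Ly6e, a lipid-anchored membrane protein that bears on virus entry, was below it, with 0 to 16.6 normalized counts, and Mx2 was not analysed here. Expression was measured by RNA-seq in 15 libraries of mouse liver that fall into 4 groups, all collected 6 h after a gavage. LbNOX livers, which express a water-forming bacterial NADH oxidase, gave 3 libraries after ethanol (M13 to M15) and 4 after water (M6 to M9). Luciferase livers, which carry the control construct, gave 3 libraries after ethanol (M10 to M12) and 5 after water (M1 to M5). The design sets the ethanol response of livers in which the added enzyme can oxidise NADH against that of control livers. The labels do not give the age, sex or strain of the mice, how a construct was delivered or which liver cells carried it. The design text names wild-type and ChREBP mice, whereas titles and table header name the constructs, so the ChREBP genotype is not settled here. Nothing in the labels ties each library to an animal of its own, and the p-values then cover only the spread among these libraries, which may be technical.

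Type I interferons signal through the receptor chains Ifnar1 and Ifnar2 and the kinases Jak1 and Tyk2. The kinases activate Stat2, which acts with Irf9 in ISGF3, a complex that binds the interferon-stimulated response element in promoters of the genes described here. Several of the products feed back on the pathway: Stat2, Irf9 and Irf7 carry the signal, the RNA helicases detect viral RNA, and Usp18 dampens the receptor. Liver expresses these genes at a tonic level in hepatocytes and in resident immune cells, and virus infection raises them strongly. Interferon gamma, made by T and NK cells, uses another receptor and acts through a different promoter site, the gamma-activated site.

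Members lie in clusters of related or neighbouring genes on GRCm38. Ifit2, Ifit3 and Ifit1 occupy chr19:34550694-34650009, Rsad2 and Cmpk2 lie 12751 bases apart on opposite strands of chromosome 12, and Oas2, Oas3, Oas1g and Oas1a occupy chr5:120730333-120907521. Dtx3l and Parp9 overlap by 682 bases on opposite strands of chromosome 16, next to Parp14, and whether strand was used in counting is not given in the sources used here, so reads from the overlap cannot be told apart. Near copies share much sequence: 68.8% of the 31-base words in Oas1a transcripts, 55.1% of those in Oas1g and 61.8% of those in Ifit3 also occur in transcripts of another gene, which for Ifit3 is Ifit3b. The split of reads between those genes is uncertain. For the other 37 members found, the share was at most 13.8%.

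Promoter windows from RefSeq (GRCm38.p6; 250 bases before to 50 after a start site) were found for 30 of the 40 members. The core of the interferon-stimulated response element was searched on both strands as GAAA, any 2 bases, GAAA. It was present in 13 of those 30 members (43.3%), against 1079 of the 27025 genes with a window (3.99%). The gamma-activated site, TTCNNNGAA, was present in 6 of the 30 members (20%), against 9.55% of all genes, and matches of both motifs could overlap. A match is a description of the letters and does not show binding. The windows below are those of the 3 most abundant members that hold the first motif and were lower after ethanol in luciferase livers, with the match in capitals, and of the most abundant such member without it, Dtx3l. Each is written in the gene's direction.
Stat2, chr10:128270248-128270547, plus strand: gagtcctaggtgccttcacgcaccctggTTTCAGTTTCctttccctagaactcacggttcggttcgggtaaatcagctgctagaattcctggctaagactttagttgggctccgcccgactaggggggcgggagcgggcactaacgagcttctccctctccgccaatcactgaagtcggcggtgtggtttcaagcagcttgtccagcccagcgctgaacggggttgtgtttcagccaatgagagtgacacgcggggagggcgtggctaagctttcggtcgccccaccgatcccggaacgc
Ifih1, chr2:62646206-62646505, minus strand: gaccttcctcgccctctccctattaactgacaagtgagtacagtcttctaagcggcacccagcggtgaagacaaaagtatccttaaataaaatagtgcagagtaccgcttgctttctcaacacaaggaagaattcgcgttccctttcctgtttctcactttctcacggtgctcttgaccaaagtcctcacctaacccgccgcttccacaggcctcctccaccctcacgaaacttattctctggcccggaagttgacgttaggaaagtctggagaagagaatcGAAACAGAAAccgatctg
Rsad2, chr12:26456403-26456702, minus strand: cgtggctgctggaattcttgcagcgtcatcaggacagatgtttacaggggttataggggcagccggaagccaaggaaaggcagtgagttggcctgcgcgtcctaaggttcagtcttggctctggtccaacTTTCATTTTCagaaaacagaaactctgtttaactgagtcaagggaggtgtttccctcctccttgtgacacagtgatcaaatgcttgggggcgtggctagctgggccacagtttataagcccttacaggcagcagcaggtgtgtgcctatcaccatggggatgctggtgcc
Dtx3l, chr16:35938978-35939277, minus strand: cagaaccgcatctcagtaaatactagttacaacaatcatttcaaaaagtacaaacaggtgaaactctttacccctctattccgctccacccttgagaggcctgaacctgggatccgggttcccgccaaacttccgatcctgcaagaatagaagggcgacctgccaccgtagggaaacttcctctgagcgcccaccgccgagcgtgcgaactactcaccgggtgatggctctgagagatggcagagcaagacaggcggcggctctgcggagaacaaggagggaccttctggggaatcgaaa

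In Stat2 the match lies at bases -222 to -213 from the start (base 0), in Rsad2 at -120 to -111, and in Ifih1 after the start at 32 to 41. The other members that were lower after ethanol in luciferase livers and hold the motif are shown as the matched bases in capitals with 4 bases on each side. Isg15 has 3 overlapping matches within 22 bases, and Ifit1, Ifit3 and Ddx60 have 2 separate ones each.
Isg15, bases -78 to -57: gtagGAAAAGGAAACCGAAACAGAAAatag
Ifit1, bases -104 to -95: tcagTTTCACTTTCcagt
Ifit1, bases -85 to -76: tcagTTTCAGTTTCtcac
Ifit3, bases -156 to -147: taagTTTCACTTTCctct
Ifit3, bases -122 to -113: tctgTTTCAGTTTCtact
Ddx60, bases -53 to -44: aatgGAAACCGAAActta
Ddx60, bases -19 to -10: aagaGAAACCGAAActat
Ddx58, bases 2 to 11: gcagTTTCGATTTCctat

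Oas1a and Oas1g hold the same 24 letters, tcggGAAATGGAAACTGAAAatct, with the match at -20 to -5 in Oas1a and at -18 to -3 in Oas1g. Of the 17 members with a window that were called lower in luciferase livers after ethanol, 8 hold the motif (47.1%), and of the 13 others with a window, 5 hold it (38.5%). The gamma-activated site was present in 1 of those 17 (5.88%) and in 5 of those 13 (38.5%), against 9.55% of all genes.

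Recovered depth was 10.6 to 23.7 M reads per library, and library size was 12.2 to 14.4 M in the luciferase ethanol group and 14.5 to 23.7 M in the luciferase water group. One library stood apart over the members. M4, of the luciferase water group, had the highest value of all 15 libraries for 38 of the 39 tested members, and was the highest library for 8.05% of all tested genes. The exception was Sp100, which was highest in M3. Against the median of the other 4 luciferase water libraries, the members of M4 stood at a median ratio of 2.36, with 24 of 39 above 2-fold (61.5%), against 3.48% of all genes above 2-fold. The ratio was largest in the IFIT genes (median 5.46, and 7.25 for Ifit1) and small in the PARP and DTX3L group (median 1.46) and in Irf9 (1.21). Genes of the interferon gamma axis did not share it: their median ratio in M4 was 0.664, and 0 of 12 were above 2-fold. At the other end, M10 of the luciferase ethanol group had the lowest value of that group for 34 of 39 members, against 36.9% of all genes.

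**Figure D1:**
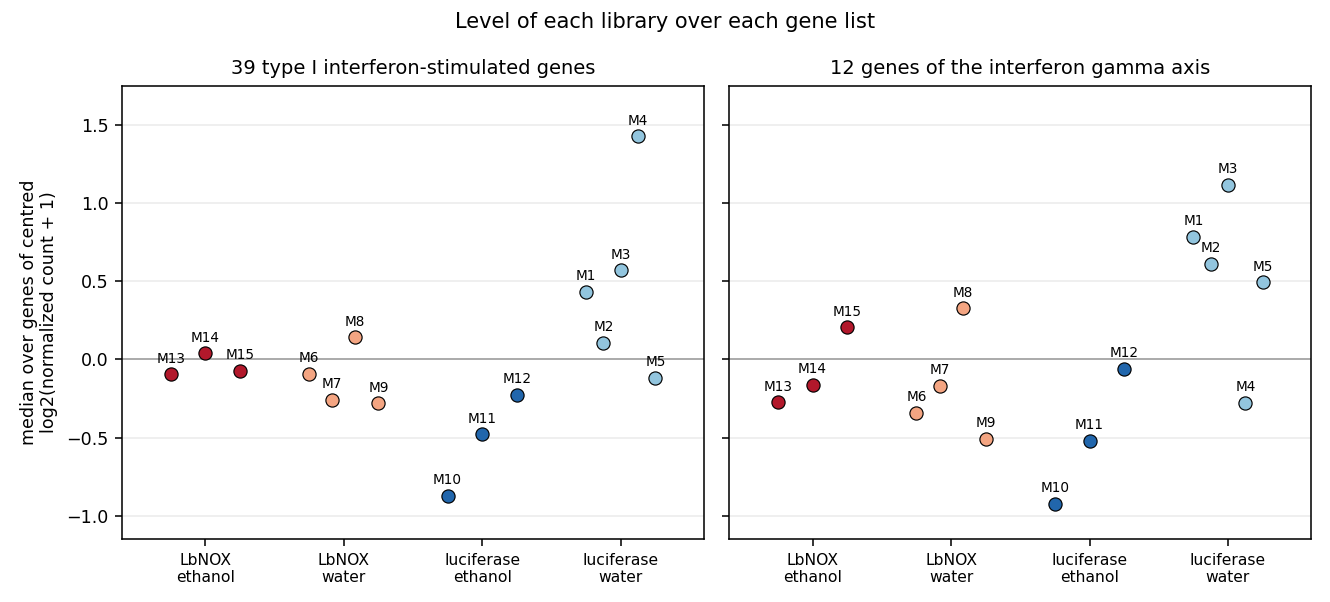
Median over genes of log2(normalized count + 1), each gene centred on its mean over 15 libraries, for 39 type I interferon-stimulated genes (left) and 12 genes of the interferon gamma axis (right); each point is 1 library, and colours mark the groups. M4 stands at 1.43 over the members and at -0.28 over the gamma axis, and M10 is the lowest library on both sides.

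Over the members, the 3 LbNOX ethanol libraries stood between -0.10 and 0.04 on this centred log2 scale and the 4 LbNOX water libraries between -0.28 and 0.14, so that these groups overlapped. The luciferase ethanol libraries stood at -0.87, -0.48 and -0.23, and the luciferase water libraries at 0.43, 0.10, 0.57, 1.43 and -0.12. Every luciferase ethanol library was below every luciferase water library. As group means of log2 values, luciferase water was the highest of the 4 groups for all 39 tested members, against 19.2% of all tested genes, and luciferase ethanol was the lowest for 30 of 39, against 32.4% of all genes. Without M4, luciferase water was the highest for 33 of 39. Rtp4 is among the 39, although it reached 10 normalized counts only in M1, M3, M4 and M15. It passed the filter mainly through luciferase water, so its place in this count follows partly from the filter.

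**Figure D2:**
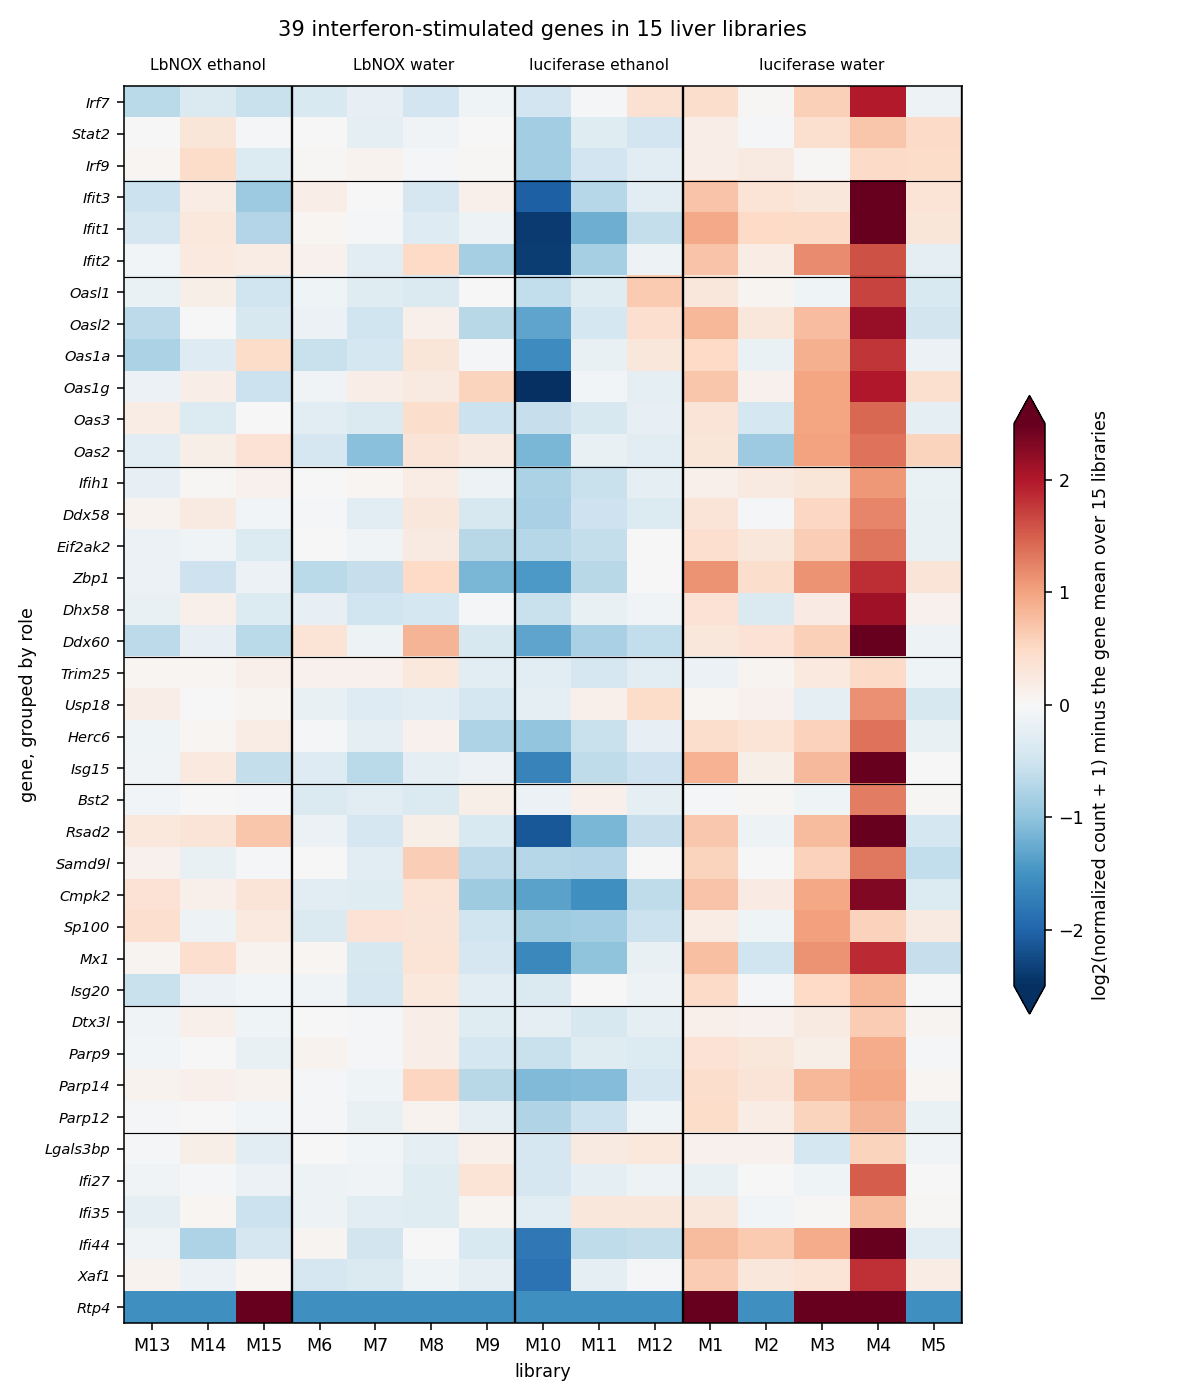
Centred log2(normalized count + 1) of the 39 tested members (rows, grouped by role) in 15 libraries (columns, by group); the colour scale is cut at 2.5 on either side. M4 is high across nearly all rows, luciferase ethanol libraries are low in most, with M10 lowest, and the LbNOX libraries stand near 0 in most rows.

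In luciferase livers, interferon-stimulated genes were lower after ethanol than after water. Of the 39 tested members, 20 fell (limma on log2(normalized count + 1), Benjamini-Hochberg adjusted p below 0.05 over 13570 genes), which is 51.3%, against 3.13% of all tested genes called lower. None rose, all 39 estimates were below 0, and 31 had an unadjusted p below 0.05, with Rtp4 in both counts. Without Rtp4 the other 38 estimates ran from -2.52 to -0.02. Without M4, 36 of 39 estimates were below 0 and 24 members had an unadjusted p below 0.05. The estimates of Usp18, Ifi35 and Lgals3bp, none of them called, were then above 0. The median log2 fold change of the members was -0.94, against 0.01 for all genes; the scale understates changes of low genes. The 20 comprise all 3 IFIT genes, all 4 genes of the PARP and DTX3L group, 4 of 6 sensors, Stat2 and Irf9 among 3 signal transducers, Isg15 and Herc6 among 4 genes of the ISG15 system, 3 of 7 restriction factors and 2 of 6 other genes. None of the 6 oligoadenylate synthetases and relatives passed with limma, although 5 had an unadjusted p below 0.05. For 20 members every ethanol library was below every water library, against 6.39% of all genes, and 18 of the 20 called members were among these. The count rested on single libraries. It was 2 without M10, 5 without M11, 11 without M1, 13 without M3 and 18 without M4. It was 3 without M4 and M10 together, and 5 when only the luciferase groups were fitted. Calls over all genes, in either direction, also fell in most of these runs. They were 7.75% with all libraries, 3.3% without M10, 5.79% without M11, 5.63% without M1 and 6.62% without M3. They were 8.99% without M4, 4% without M4 and M10, and 4.68% with only the luciferase groups. The median of the members was -0.77 without M4, -0.72 without M10 and -0.57 without both.

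Stat2 and Irf9, components of ISGF3, were among the members with the smallest p. Stat2 had 540, 798 and 708 normalized counts in the luciferase ethanol libraries, against 1101, 953, 1296, 1601 and 1375 in the luciferase water libraries. All 3 ethanol values were below all 5 water values, and the highest ethanol value stood below the lowest water value by less than the spread within either group. The log2 fold change of Stat2 was -0.89 (SE 0.17, limma adjusted p = 0.00423), and it kept an adjusted p below 0.05 when any 1 library was left out, at most 0.0379. Irf9 had 430, 564 and 644 normalized counts after ethanol, against 882, 923, 806, 1092 and 1078 after water. Its groups did not overlap, and it fell by 0.82 on the log2 scale (SE 0.17, adjusted p = 0.00904), with an adjusted p of 0.0732 without M10. Irf7, the transcription factor that amplifies interferon production, had 729, 983 and 1322 normalized counts after ethanol, against 1375, 1040, 1543, 4042 and 934 after water. These groups overlapped, and its log2 fold change of -0.64 (SE 0.36) did not pass (adjusted p = 0.336).

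The IFIT proteins bind viral RNA and block its translation, and their genes had the largest median fall of the role groups, at -1.90 on the log2 scale. Ifit1 had 56.9, 129 and 199 normalized counts in luciferase livers after ethanol, against 587, 429, 421, 3081 and 376 after water. M4 was far above the other 4 water libraries, and every ethanol library was below the lowest water library. Ifit1 fell by 2.52 on the log2 scale (SE 0.58, adjusted p = 0.0165), and its adjusted p was 0.107 without M10. Ifit3 had 110, 278 and 380 normalized counts after ethanol, against 751, 578, 558, 3157 and 578 after water, which did not overlap (log2 fold change -1.90, SE 0.53, adjusted p = 0.0402). Ifit2 had 35.1, 104 and 168 normalized counts after ethanol, against 303, 211, 421, 563 and 159 after water. In Ifit2 the highest ethanol library was above the lowest water library, and it fell by 1.80 (SE 0.47, adjusted p = 0.0303). Without M10 its log2 fold change was -1.17 (adjusted p = 0.183), and the call of Ifit3 ended in 8 of 15 omissions of a single library and with edgeR.

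**Figure D3:**
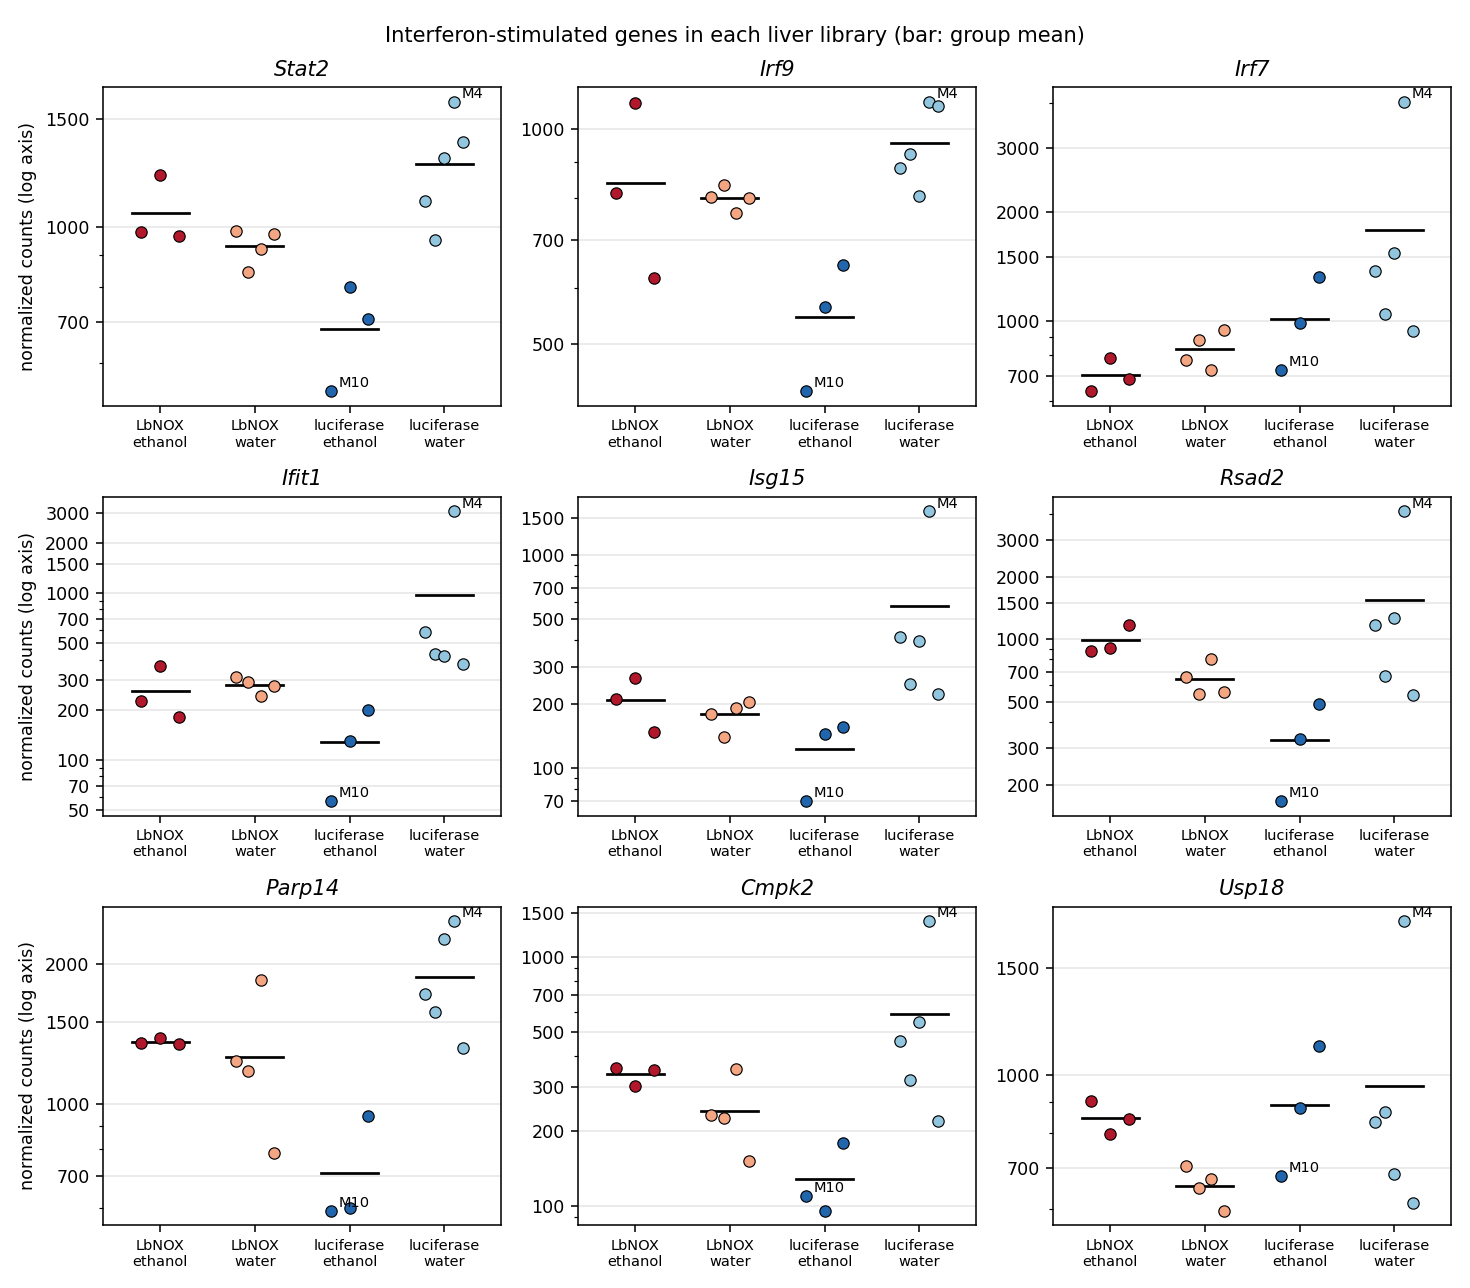
Normalized counts (log axis) of 9 members in each library, by group; each point is 1 library, the bar is the group mean, and M4 and M10 are named. In Stat2, Irf9, Ifit1, Isg15, Rsad2, Parp14 and Cmpk2 every luciferase ethanol point is below every luciferase water point, while in Irf7 and Usp18 these groups overlap.

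Oligoadenylate synthetases make a second messenger that activates an RNA-degrading enzyme, and the OASL proteins are their relatives. Oasl1, which in the mouse restrains translation of Irf7, had 451, 556 and 1079 normalized counts after ethanol in luciferase livers, against 839, 720, 638, 2227 and 529 after water. The groups overlapped, and the log2 fold change of -0.40 (SE 0.38) did not pass (adjusted p = 0.619). Oasl2 had 84.7, 156 and 284 normalized counts after ethanol, against 375, 259, 360, 962 and 153 after water, again with overlap (log2 fold change -1.16, SE 0.47, adjusted p = 0.172). Oas1a, Oas2 and Oas3 had log2 fold changes of -1.07, -1.0 and -0.81 and did not pass. Oas1g had an estimate of -2.33 with no overlap of the groups (adjusted p = 0.0637), with a single low library at 2.42 normalized counts.

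Among the sensors, Ifih1, which encodes the long double-stranded RNA sensor MDA5, had 660, 778 and 976 normalized counts after ethanol in luciferase livers, against 1252, 1347, 1408, 2428 and 1017 after water. The groups did not overlap, and Ifih1 fell by 0.84 on the log2 scale (SE 0.22, adjusted p = 0.0279). Ddx58, which encodes RIG-I, had 396, 486 and 548 normalized counts after ethanol, against 861, 676, 995, 1609 and 607 after water, which did not overlap (log2 fold change -0.92, SE 0.26, adjusted p = 0.0417). Zbp1, a sensor of Z-form nucleic acids that can start necroptosis, averaged 258 ± 125 normalized counts after ethanol (SD, n = 3) and 822 ± 368 after water (SD, n = 5), and fell by 1.68 (SE 0.40, adjusted p = 0.0183). Ddx60, a helicase linked to RIG-I signalling, fell by 1.64 (SE 0.47, adjusted p = 0.0454). Eif2ak2, which encodes the translation-blocking kinase PKR, had 408, 446 and 664 normalized counts after ethanol, against 903, 822, 1026, 1701 and 592 after water. Its groups overlapped, and its estimate of -0.94 (SE 0.28) missed the threshold (adjusted p = 0.0571), as did that of Dhx58, which encodes the RIG-I-like protein LGP2 (-0.76, adjusted p = 0.292).

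Isg15 is a ubiquitin-like protein that is attached to other proteins, and Herc6 is the ligase that attaches it in the mouse. Isg15 averaged 124 ± 46.5 normalized counts after ethanol in luciferase livers (SD, n = 3) and 576 ± 580 after water (SD, n = 5), and fell by 1.87 on the log2 scale (SE 0.50, adjusted p = 0.0321). Herc6 had 264, 356 and 451 normalized counts after ethanol, against 710, 655, 773, 1342 and 460 after water, with no overlap (log2 fold change -1.08, SE 0.28, adjusted p = 0.0299). Usp18, the protease that removes Isg15 and also dampens the receptor, had 681, 883 and 1114 normalized counts after ethanol, against 836, 869, 685, 1795 and 613 after water. These groups overlapped almost wholly (log2 fold change -0.02, SE 0.27, adjusted p = 0.984). Trim25, a ligase that acts on RIG-I, had 2705, 2435 and 2698 normalized counts after ethanol, against 2966, 3445, 3860, 4560 and 3017 after water. The groups did not overlap, but the estimate of -0.43 (SE 0.15) did not pass (adjusted p = 0.0989).

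Rsad2, which encodes the antiviral enzyme viperin, and its neighbour Cmpk2, a mitochondrial nucleotide kinase, fell by similar amounts. Rsad2 had 167, 331 and 489 normalized counts after ethanol in luciferase livers, against 1171, 669, 1265, 4117 and 538 after water, with no overlap (log2 fold change -1.96, SE 0.51, adjusted p = 0.0313). Cmpk2 averaged 128 ± 44.8 normalized counts after ethanol (SD, n = 3) and 588 ± 465 after water (SD, n = 5), and fell by 1.94 (SE 0.45, adjusted p = 0.0159). Sp100, a nuclear body protein that restricts DNA viruses, fell by 1.15 (SE 0.27, adjusted p = 0.0174). Bst2, which encodes tetherin, had 2082, 2505 and 1931 normalized counts after ethanol, against 2228, 2331, 2124, 5575 and 2333 after water; outside M4 the groups covered much the same range (log2 fold change -0.32, SE 0.26, adjusted p = 0.532). Samd9l, an inhibitor of translation, had 526.5, 520 and 870 normalized counts after ethanol, against 1267, 856, 1290, 2155 and 560 after water, with overlap (adjusted p = 0.193). Mx1, a GTPase that blocks influenza viruses, and Isg20, an exonuclease, had estimates of -1.47 and -0.52 and did not pass.

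Parp9 and Dtx3l form an ADP-ribosylating ubiquitin ligase, and Parp12 and Parp14 are further ADP-ribosyltransferases of the interferon response. Dtx3l had 1598, 1410 and 1575 normalized counts after ethanol in luciferase livers, against 2054, 2029, 2183, 2898 and 1966 after water, and Parp9 had 1225, 1453 and 1415, against 2295, 2197, 1992, 3407 and 1737. In both genes the groups did not overlap, and M4 was the highest water library. Dtx3l fell by 0.53 (SE 0.14, adjusted p = 0.0296) and Parp9 by 0.73 (SE 0.19, adjusted p = 0.0267). Parp14 had 591, 599 and 944 normalized counts after ethanol, against 1724, 1580, 2268, 2471 and 1318 after water. It had the smallest p of the members (log2 fold change -1.39, SE 0.25, adjusted p = 0.00377), and its adjusted p was at most 0.0317 when any 1 library was left out. Stat2 and Parp14 kept their call in every alternative and every omission run, and no other member did. Parp12 fell by 0.83 (SE 0.19, adjusted p = 0.0164), with overlapping groups.

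The remaining members differ in what they do. Xaf1, which promotes cell death, fell by 1.37 (SE 0.39, adjusted p = 0.0441) and Ifi44, a cytoplasmic antiviral protein, by 2.02 (SE 0.52, adjusted p = 0.0285). The call of Xaf1 ended in 13 of 15 omissions of a single library and with edgeR, and its log2 fold change was -0.81 without M10. Lgals3bp, a secreted glycoprotein that binds galectins, had 3873, 6057 and 6267 normalized counts after ethanol in luciferase livers, against 5572, 5581, 3850, 7660 and 4886 after water, and its groups overlapped (log2 fold change -0.03, SE 0.21, adjusted p = 0.966). Ifi27, a mitochondrial and nuclear membrane protein, had 2105, 2400 and 2579 normalized counts after ethanol, against 2460, 2792, 2592, 7958 and 2807 after water, and Ifi35, a partner of Nmi, had 375, 553 and 551, against 553, 432, 465, 792 and 462. Ifi27 in M4 stood far above the other 4 water libraries, which lay close to the ethanol libraries, and neither gene passed (adjusted p = 0.387 and 0.809). Rtp4, a receptor chaperone, was listed at 0 in all 3 luciferase ethanol libraries and in M2 and M5 after water, with 37.8, 46.5 and 171 normalized counts in M1, M3 and M4, so no fold is given. Without Rtp4 the median of the remaining 38 members was -0.93.

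In LbNOX livers, the same genes were not called in either direction after ethanol. With limma 0 of 39 members passed, against 0.00737% of all genes called (1 gene), and 0 had an unadjusted p below 0.05. On recovered reads edgeR also called 0 members, against 0.00737% of all genes, and DESeq2 called 0, against 2.08% of all genes (282). The median log2 fold change was 0.05, against 0.00 for all genes, with 15 estimates below 0 and 24 above. No member had every ethanol library below every water library, against 5.49% of all genes, and 2 members, Rsad2 and Usp18, had every ethanol library above, against 5.42% of all genes. Rsad2 had 875, 910 and 1178 normalized counts in LbNOX livers after ethanol, against 659, 544, 806 and 559 after water. The groups did not overlap, and its log2 fold change was 0.62 (SE 0.54, adjusted p = 0.675). Usp18 had 905, 798 and 845 normalized counts after ethanol, against 707, 649, 672 and 596 after water, which also did not overlap (log2 fold change 0.37, SE 0.28, adjusted p = 0.622). Ddx60 had the smallest p of the members, with an estimate of -0.68 (SE 0.49, adjusted p = 0.616), and Cmpk2 had 0.55 (SE 0.47, adjusted p = 0.672). Of the 20 members called in luciferase livers, 14 had an estimate above 0 in LbNOX livers, and for 17 the estimate was smaller than its SE.

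Parp14 had 1351, 1386 and 1349 normalized counts in LbNOX livers after ethanol, against 1239, 1181, 1848 and 786 after water. The ethanol values lay close together inside the range of the water values (log2 fold change 0.17, SE 0.27). Stat2 had 983, 1214 and 966 normalized counts after ethanol, against 985, 845, 922 and 975 after water, and Irf9 had 815, 1087 and 619, against 804, 835, 764 and 801. Both overlapped, with log2 fold changes of 0.17 (SE 0.17) and 0.03 (SE 0.18). Ifit1 had 226, 366 and 181 normalized counts after ethanol, against 315, 294, 242 and 277 after water, and Ifit3 had 314, 521 and 244, against 517, 453, 343 and 501. The estimates were -0.19 (SE 0.61) for Ifit1 and -0.39 (SE 0.55) for Ifit3, each smaller than its SE.

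**Figure D4:**
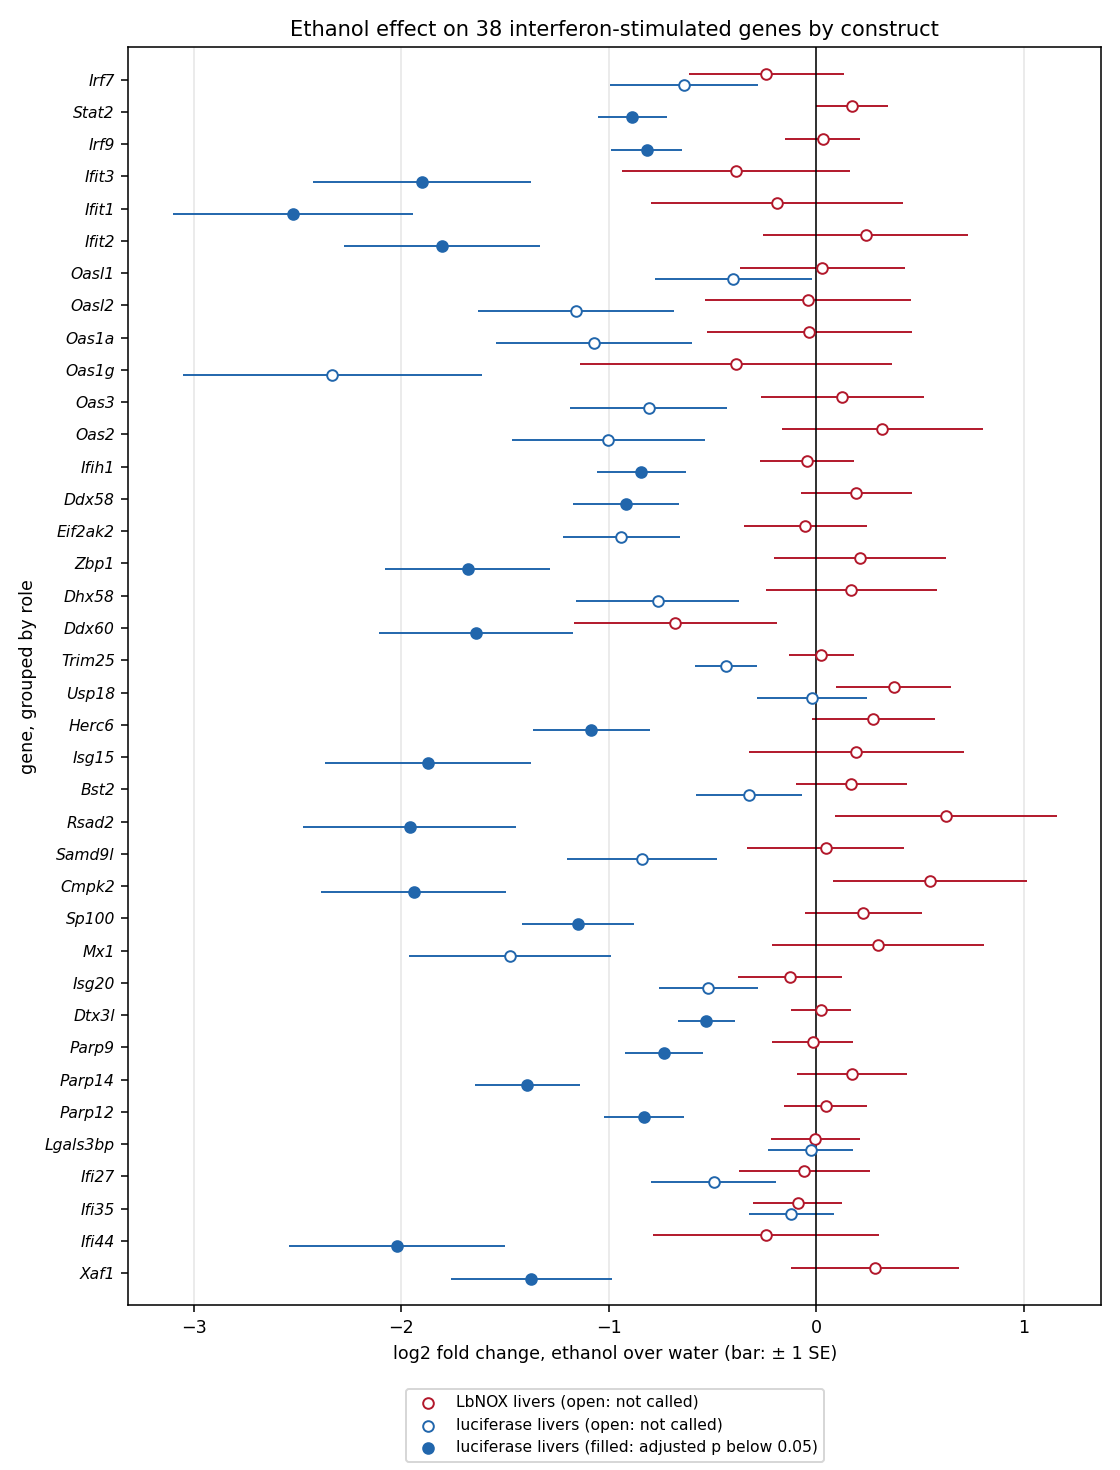
Log2 fold change of ethanol over water with 1 SE for 38 tested members (Rtp4, listed at 0 in whole groups, is left out), in LbNOX livers (red, above) and luciferase livers (blue, below); filled points are called at an adjusted p below 0.05. All luciferase estimates are below 0, with 20 called, and the LbNOX estimates lie on both sides of 0, with 0 called.

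The difference of the ethanol effect between constructs was tested directly as an interaction in the same fit. Stat2 and Parp14 passed, 2 of 39 members (5.13%), against 0.427% of all genes called in the higher direction. The difference, LbNOX minus luciferase, was 1.06 for Stat2 (SE 0.24, adjusted p = 0.0405) and 1.57 for Parp14 (SE 0.37, adjusted p = 0.0476). All 39 differences were above 0, with a median of 1.04 against -0.01 for all genes, and 21 had an unadjusted p below 0.05. Without Rtp4 the other 38 differences ran from 0.02 to 2.58, with a median of 1.0. Without M4, 37 of 39 were above 0, with a median of 0.76, and 19 had an unadjusted p below 0.05. In that run 3 members passed, against 2.12% of all genes called in either direction. These estimates use the same libraries as the comparisons within each construct, M4 and M10 included. The members next in order did not pass: Cmpk2 (2.49, SE 0.65, adjusted p = 0.0681), Sp100 (1.38, SE 0.39, adjusted p = 0.0964), Rsad2 (2.58, SE 0.74, adjusted p = 0.104) and Irf9 (0.85, SE 0.25, adjusted p = 0.109). Herc6 (1.36, adjusted p = 0.122) and Zbp1 (1.89, adjusted p = 0.128) did not pass either. The count was 0 without M10, M1, M3, M6, M7, M9 or any of M12 to M15, 1 without M2 or M11, and 4 without M8. It was 9 with DESeq2 and 1 with edgeR on recovered reads, and without M4 and M10 together it was 0, with a median difference of 0.54. Calls over all genes, in either direction, were 1.67% with all libraries, 0.474% without M10 and 2.99% without M8. They were 4.66% with DESeq2, 1.62% with edgeR and 0.721% without M4 and M10.

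After ethanol, LbNOX livers had higher levels than luciferase livers for most members, but 0 of 39 passed with limma, against 6.06% of all genes called in either direction. The median log2 fold change was 0.45, against 0.00 for all genes, with 33 of 39 estimates above 0 and 9 with an unadjusted p below 0.05. edgeR also called 0, against 5.56% of all genes, and DESeq2 called 4, against 9.94% of all genes. For 14 members every LbNOX library was above every luciferase library (35.9%), against 14.1% of all genes. Stat2 had 983, 1214 and 966 normalized counts in LbNOX livers, against 540, 798 and 708 in luciferase livers, with no overlap (log2 fold change 0.64, SE 0.19, adjusted p = 0.0561). Parp14 had 1351, 1386 and 1349, against 591, 599 and 944, also with no overlap (log2 fold change 0.97, SE 0.28, adjusted p = 0.0589). Sp100 averaged 156 ± 29.3 normalized counts in LbNOX livers and 79.8 ± 11.8 in luciferase livers (SD, n = 3 each; log2 fold change 0.95, SE 0.30, adjusted p = 0.0788). M4 belongs to neither group but enters the fit through the shared estimate of the spread and the choice of genes tested (13535 without it). Without M4, 3 members passed, against 6.53% of all genes. With all libraries, Irf7 and Ifi35 had estimates below 0, at -0.48 (SE 0.40, adjusted p = 0.525) and -0.34 (SE 0.23, adjusted p = 0.424). M10 was the lowest luciferase ethanol library for 34 of 39 members. Without M10 the median was 0.25, with 30 estimates above 0 and 7 at an unadjusted p below 0.05. The estimates of Oas1a, Oas1g and Oasl2 were then below 0, with Oas1g at -0.02 against 1.33 before. Without M12 the median was 0.675, with 35 estimates above 0 and 15 at an unadjusted p below 0.05.

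After water, LbNOX livers had lower estimates than luciferase livers for all 39 members, with a median log2 fold change of -0.59 against 0.01 for all genes. Without Rtp4 the other 38 estimates ran from -1.45 to -0.05, with the same median. With limma 0 of 39 passed, as did 0 of all genes (0%), and 18 members had an unadjusted p below 0.05. Members called were also 0 with edgeR, against 0% of all genes, and 0 with DESeq2, against 0.133%. Ifit1, Ifit3, Isg15 and Xaf1 had every LbNOX library below every luciferase library (10.3%), against 0.619% of all genes. Ifit1 had 315, 294, 242 and 277 normalized counts in LbNOX livers, against 587, 429, 421, 3081 and 376 in luciferase livers, and the gap between the groups was smaller than the spread of the luciferase libraries. Zbp1 had the smallest p (log2 fold change -1.45, SE 0.37, unadjusted p = 0.00132, adjusted p = 1.00), followed by Herc6 (-0.74, SE 0.26) and Isg15 (-1.27, SE 0.46). This comparison shares its luciferase libraries with the ethanol comparison in luciferase livers, so both contain M4. Without M4 the median was -0.37, 36 of 39 estimates were below 0 and 8 members had an unadjusted p below 0.05.

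The pathway upstream of the members was measured as well. Ifnar1 and Ifnar2, the receptor chains, had log2 fold changes of -0.05 (SE 0.15) and -0.06 (SE 0.13) in luciferase livers after ethanol. Of 12 genes of the receptor and JAK-STAT list, 1 fell and 1 rose. Irf1, an activator, had 442, 549 and 567 normalized counts after ethanol, against 991, 970, 1359, 812 and 1046 after water (log2 fold change -0.98, SE 0.18, adjusted p = 0.00392). Irf2, which competes with Irf1 for its sites, had 2051, 1666 and 1837, against 900, 1056, 875, 1349 and 1207 (log2 fold change 0.80, SE 0.17, adjusted p = 0.00986). Neither pair of groups overlapped, and M4 was the lowest water library for Irf1 and the highest for Irf2. The difference between constructs passed for Irf1 (1.29, SE 0.26, adjusted p = 0.0257) and not for Irf2 (-0.93, SE 0.25, adjusted p = 0.0735). Compared directly after ethanol, LbNOX livers had more Irf1 than luciferase livers (log2 fold change 1.04, SE 0.20, limma adjusted p = 0.00837). They had less Irf2 (-0.87, SE 0.19, adjusted p = 0.0165), and neither pair overlapped. In that comparison 6.06% of all genes were called in either direction. Of 13 further sensors and adaptors, limma called 0 in luciferase livers after ethanol (2 at an unadjusted p below 0.05), and of 8 negative regulators Ptpn6, a phosphatase, fell by 0.85 (SE 0.19, adjusted p = 0.0129). After ethanol Ptpn6 was higher in LbNOX than in luciferase livers (0.79, SE 0.21, limma adjusted p = 0.0392). Interferon ligands were not analysed here, apart from Ifng.

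Uba7 and Ube2l6, the activating and conjugating enzymes for Isg15, both fell in luciferase livers after ethanol. Uba7 had 128, 281 and 300.4 normalized counts after ethanol, against 372, 385, 471, 585 and 644 after water (log2 fold change -1.11, SE 0.29, adjusted p = 0.0307), and Ube2l6 fell by 0.68 (SE 0.13, adjusted p = 0.00569). For neither gene did LbNOX differ from luciferase livers after ethanol beyond the error, with estimates of -0.23 (SE 0.33) and -0.03 (SE 0.15). Of 33 other interferon-stimulated genes, 11 fell: Cxcl10, Ifi47, Gbp3, Parp11, Trim21, Helz2, Tap1, Trafd1, Nmi, Psmb8 and Mov10, with estimates from -2.5 for Cxcl10, a chemokine, to -0.51 for Mov10, an RNA helicase. Their median was -0.66. The difference between constructs passed for Cxcl10 (2.82), Ifi47 (1.54), Helz2 (1.47) and Trafd1 (0.70), an adjusted p of 0.0257 to 0.0302. After ethanol 2 of the 33 were called between constructs, against 6.06% of all genes. Both were higher in LbNOX livers, Cxcl10 by 2.08 (limma adjusted p = 0.0159) and Helz2 by 1.13 (adjusted p = 0.0107).

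Genes of the interferon gamma axis were measured beside the members, and M4 did not stand high in them. Of 12 tested (Gbp2 is also among the other interferon-stimulated genes above), 4 fell in luciferase livers after ethanol (Ciita, Igtp, Irgm1 and Iigp1) and all 12 estimates were below 0, with a median of -1.14. Iigp1, an immunity-related GTPase, had 5553, 8408 and 8879 normalized counts after ethanol, against 22700, 25220, 27220, 19160 and 20400 after water, more than 2-fold apart throughout (log2 fold change -1.61, SE 0.19, adjusted p = 0.000161). Its difference between constructs was 1.64 (SE 0.27, adjusted p = 0.00847), and that of Irgm1 was 1.56 (SE 0.29, adjusted p = 0.0169). These differences include a gap after water, where both genes were lower in LbNOX than in luciferase livers with no overlap. The log2 fold changes there were -0.91 (SE 0.17) for Iigp1 and -0.89 (SE 0.19) for Irgm1, each at a limma adjusted p of 0.681. Over the axis the median after water was -0.86, with 11 of 12 estimates below 0 and 0 called, against 0% of all genes. Ifng was listed at 0 in all 3 luciferase ethanol libraries, with 1.17 to 10.8 normalized counts in the luciferase water libraries.

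Markers of cell types that can carry interferon-stimulated genes were summed per library. Summed T and NK cell markers stood at 108 to 121 normalized counts in luciferase livers after ethanol, against 108 to 369 after water; 1 of 10 tested, Nkg7, was called lower. Their median log2 fold change was -0.92, with 9 of 10 below 0 and 5 at an unadjusted p below 0.05. Nkg7, Gzma and Ncr1 were at 0 in some libraries. Summed Kupffer cell and macrophage markers stood at 1595 to 2083 after ethanol, against 1793 to 4489 after water, with 0 of 9 called by limma (1 at an unadjusted p below 0.05). Their median log2 fold change was -0.41, with 8 of 9 below 0. Summed liver endothelial cell markers stood at 1571 to 2344 after ethanol, against 1760 to 2999 after water, with a median log2 fold change of -0.60, 6 of 7 below 0 and 0 of 7 called by limma (3 at an unadjusted p below 0.05). M4 itself had the lowest T and NK cell sum of its group, at 108, and a Kupffer cell sum of 2409, within its group's range. Plasmacytoid dendritic cell markers, of which Klk1 and Cox6a2 were at 0 in some libraries, stood at 1484 to 2474 after ethanol, against 1437 to 3015 after water. Most of that sum was Ly6d, which averaged 1481 normalized counts over all libraries, whereas Siglech averaged 6.78 and Ccr9 3.56. The sum therefore says little about these cells. Other lists went the other way in luciferase livers after ethanol. The median log2 fold change was 0.22 for stellate cell markers (6 of 7 above 0) and 0.43 for neutrophil markers (5 of 6 above 0). For hepatocyte markers it was 0.19, with 7 of 8 above 0. In these lists limma called only Tat, a hepatocyte marker, which was higher (adjusted p = 0.0223). In LbNOX livers summed neutrophil markers stood at 185 to 715 after ethanol, against 114 to 305 after water. Hepatocyte markers such as Alb had the largest sums of the marker lists in every library, at 532400 to 1007000. In bulk liver, fewer cells of a type and less RNA per cell cannot be told apart, and the part of these markers in the members' levels was not tested.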

How the data were processed

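The 15 libraries were made from liver RNA with a KAPA mRNA kit, as the labels' protocols name it. The file deposited by the authors gives a signal for each gene in each library, namely normalized counts, which are reads divided by a factor that differs between libraries, as the values show. Salmon 1.5.1, DESeq2 1.30.1 and mm10 are listed per the submitters' processing notes, with no step assigned to each. Its columns name a group and a library, M1 to M15, but not a replicate. All values (100%) lay within 0.001 of whole multiples of a library's smallest step, so reads could be recovered. No pair of replicate libraries was duplicated, the chi-square statistic over genes being 25.0 to 135 times its degrees of freedom.

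Means of the 4 groups were fitted together by limma 3.58.1 in R 4.3.3, with trend and robust variances, to log2(normalized count + 1) of genes that reached 10 in 3 or more libraries. A gene was called where its p, adjusted by Benjamini-Hochberg over the 13570 genes tested, was below 0.05. Fold changes are on the log2(value + 1) scale. The fit was tested on simulated data. The members, lists and tests were chosen with earlier results of these data known. Every member is named; full statistics go to members called, to at most 8 with the smallest p, or to 3 where none was called, and values by library to at most 3 members of a role with the highest mean; other genes were named after their values were seen. An item that this rule covers is not reported here. Alternatives were quantile normalization, pseudocounts of 0.5 and 5, a filter at 50 or none, no trend, only the groups compared, edgeR 4.0.16 and DESeq2 1.42.0 on recovered reads, and libraries left out. Positions and transcripts are from GENCODE vM21 on GRCm38, and promoter windows from RefSeq on GRCm38.p6. Intervals of counting error are not given, since the spread between libraries is larger.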

Additional observations from a re-analysis of the deposited data

Results flagged for a closer look

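In the luciferase water group, library M4 stood further above the other 4 libraries than Dixon's critical value at 95% allows for 18 of the 39 tested members. Over both water groups 78 such group tests were made, of which chance flags about 1 in 20; the genes of one library are not independent of each other. The M4 values, in normalized counts, were as follows. IFIT genes stood at 3081 for Ifit1 and 3157 for Ifit3. Oasl1 stood at 2227 and Oasl2 at 962, Irf7 at 4042, Isg15 at 1602 and Usp18 at 1795. Among sensors, Ddx60 stood at 1095, Ifih1 at 2428 and Dhx58 at 1276. Rsad2 stood at 4117, Cmpk2 at 1389 and Bst2 at 5575. Dtx3l stood at 2898, Xaf1 at 771.8, Rtp4 at 171, Ifi27 at 7958 and Ifi44 at 1802. No library of the LbNOX water group passed that value for any member, and no low library did. M4 did not stand high in the interferon gamma axis, where its median ratio to the other luciferase water libraries was 0.664.

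The ethanol effect differed between constructs for Stat2, by 1.06 on the log2 scale (LbNOX minus luciferase, limma adjusted p = 0.0405), and for Parp14, by 1.57 (adjusted p = 0.0476). In both, the LbNOX estimate was 0.17 and the luciferase estimate below 0, at -0.89 for Stat2 and -1.39 for Parp14. Over the omissions of 1 library the adjusted p ran from 0.0273 to 0.125 for Stat2 and from 0.0142 to 0.144 for Parp14.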

How the results depend on the processing

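No paired analysis was possible because the columns carry a library name and no replicate number. No called member changed sign in luciferase livers under any alternative run. Members that were not called did: Usp18, Ifi35 and Lgals3bp stood at 0.24, 0.03 and 0.10 without M4, and Oasl1 at 0.21 without M4 and M10. In luciferase livers the 20 members called lower after ethanol became 5 when only the groups compared were fitted, 11 without M3 and M8 together, and 3 without M4 and M10 together, an omission chosen after seeing the data; those 3 were Stat2, Parp14 and Ifit1. Leaving out 1 library gave 2 to 22 calls, the lowest without M10 and the highest without M5. Other settings gave 16 to 24, with 18 by edgeR and 24 by DESeq2. Calls over all genes in that comparison, in either direction, were 7.75% in the main run. They were 4.68% with only the groups compared, 7.28% without M3 and M8, and 4% without M4 and M10. They were 3.3% without M10, 7.31% without M5, 7.73% by edgeR and 11.9% by DESeq2. For LbNOX against luciferase livers after ethanol the count of 0 became 1 with quantile normalization, 3 with only the groups compared, 4 with DESeq2, 2 without M3 and M8, 4 without M4 and M8, and 0 to 3 with 1 library left out. Calls over all genes there were 6.06% in the main run, 6.46% with quantile normalization, 5.6% with only the groups compared and 9.94% with DESeq2. They were 8.8% without M3 and M8, 7.24% without M4 and M8, and 2.21% to 7% with 1 library left out. For the difference between constructs the count of 2 became 1 with no filter on low values, 0 without trend and robust variances, 1 with edgeR, 9 with DESeq2, 1 without M3 and M8, 6 without M4 and M8, 0 without M4 and M10, and 0 to 4 with 1 library left out. Calls over all genes for this difference were 1.67% in the main run, 1.62% with edgeR and 4.66% with DESeq2. They were 2.95% without M3 and M8, 3.86% without M4 and M8, and 0.474% to 2.99% with 1 library left out. The median difference was 0.54 without M4 and M10, against 1.04 with all libraries. The cause of these changes was not tested, beyond the smaller number of samples in each omission. In LbNOX livers after ethanol, and after water between constructs, the count was 0 under every alternative run. Calls over all genes were 0% to 2.08% in the first comparison and 0% to 0.133% in the second, both highest with DESeq2. A count of 0 of 39 members is near these shares. The number of libraries, 3 in each ethanol group, limits the precision of all values. Rtp4 and Ly6e had fewer than 10 normalized counts in most libraries.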
